A study of Mus musculus with 6 samples.

Results

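The antioxidant and NRF2-controlled genes described here are 39 genes, taken by name from the 43432 genes of the deposited table of mouse atrial RNA. They comprise the transcription factor NRF2 (gene *Nfe2l2*) and its inhibitor *Keap1*, the enzymes *Hmox1* and *Nqo1*, 5 genes of glutathione synthesis and recycling, 6 of the thioredoxin and glutaredoxin systems, 6 peroxiredoxins, 5 glutathione peroxidases, catalase with 3 superoxide dismutases, 8 glutathione S-transferases, and the hydrogen peroxide-producing oxidase *Nox4*. The rule that picks them from the table uses names alone, but the list of names was drawn up with earlier results of these data known. All 39 names were found once letter case was ignored, because the table writes gene names in capitals. All 39 had enough reads to be tested.

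Obese mice had received a high-fat diet (HFD) and lean mice a control chow, in each case for 10 weeks from 6 weeks of age, with 3 mice in each group. All were wild-type mice of the labelled genotype C57/Bl6J, and RNA came from right and left atrial tissue without sorting of cells. In such bulk tissue, fewer cells of a type and less RNA per cell cannot be told apart. The diets used here are those of the sample titles and of the column codes in the table. For each of the 6 samples the field named treatment states the other diet. If that field were right, every direction below would reverse. Values are normalized counts, that is, reads per gene divided by a size factor per mouse. The libraries held 15874251 to 28971508 reads on genes, and the deepest, that of lean mouse 2, had 30.7% of its reads on mitochondrial genes against 19.5% to 24.4% in the others. A count of 3 reads corresponded to between 2.05 and 3.41 normalized counts, counting error only, and every antioxidant gene lay far above it in every mouse.

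NRF2 is controlled mainly through the stability of its protein. In unstressed cells KEAP1 hands NRF2 to a ubiquitin ligase, whereas oxidants and electrophiles modify cysteines of KEAP1, so that NRF2 accumulates, pairs with small MAF proteins and binds antioxidant response elements beside genes for glutathione synthesis, thioredoxin reduction and detoxification. Cardiac muscle draws most of its energy from mitochondrial oxidation of fatty acids, which also yields superoxide and hydrogen peroxide, and superoxide dismutases, catalase, peroxiredoxins and glutathione peroxidases remove these in different compartments of the cell.

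The antioxidant response element was searched as TGACNNNGC on both strands of the promoters in the RefSeq table (build GRCm38.p6), each running from 250 bases before to 50 bases after a transcription start. Of the 39 genes, 32 had an entry and 7 did not (*Hmox1*, *Gclc*, *Gsr*, *Prdx6*, *Sod3*, *Gsta4* and *Ggt5*). The element was found for 8 of the 32 (25%) and for 3781 of all 27025 genes in the table (14.0%). The 4 sequences below are those of the regulator *Nfe2l2* and of 3 glutathione and thioredoxin genes whose values are given mouse by mouse further on. Each is written 5′ to 3′ on the strand of its gene, with the element in capitals. A sequence with TGAC first has the element on the gene's own strand, and one with GTCA last has it on the other strand.
Nfe2l2: tcagcccaccTGACTCCGCcatgccccgga
Gclm: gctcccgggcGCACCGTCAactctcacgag
Txnrd1: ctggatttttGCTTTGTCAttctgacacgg
Srxn1: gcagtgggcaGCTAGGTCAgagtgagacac
With the start counted as position 0, the first base of the element lay at -240 in *Nfe2l2* (chr2:75704884-75704913, gene on the minus strand), at -134 in *Gclm* (chr3:122245413-122245442), at -92 in *Txnrd1* (chr10:82859104-82859133) and at 28 in *Srxn1* (chr2:152105542-152105571), the last 3 genes lying on the plus strand. The other 4 matches were in *Prdx1*, *Mgst1*, *Sod1* and *Gsta3*. A match describes letters in the window and is not evidence of binding, and genes without one, *Nqo1* and *Gstt1* among them, only lack these letters in this window.

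The antioxidant genes lay on both sides of zero in obese atria. Of the 39, 20 had a log2 fold change above zero and 19 below, with a median of 0.0010 against 0.0049 for all 15275 genes tested, and values from -0.78 to 0.63. With limma on log2(normalized count + 1), among the 39 only *Gstt1* passed an adjusted p of 0.05 (Benjamini-Hochberg over all genes tested), and it fell. That is 1 of 39 genes (2.56% lower, 0 higher), where 0.746% of all genes tested passed in either direction and 0.262% were lower. At an unadjusted p under 0.05, 3 genes were higher (*Cat*, *Txnrd1* and *Srxn1*) and 3 lower (*Gstt1*, *Glrx* and *Nqo1*), each 7.69% of the 39, against a background of 6.66% higher and 5.55% lower. The groups, 3 mice each, were free of overlap for 2 genes higher in obese atria (*Txnrd1* and *Gclc*) and for 3 lower (*Gstt1*, *Glrx* and *Nqo1*), together 5 genes. Of all genes tested, 18.0% did not overlap, 8.86% with obese mice higher and 9.17% with obese mice lower. The shares among the 39 genes are near this background. The samples are numbered in the labels but not otherwise described, so p-values measure the spread between these 6 samples, and with 3 mice a group the smallest two-sided p of an exact permutation test is 0.1.

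**Figure D1:**
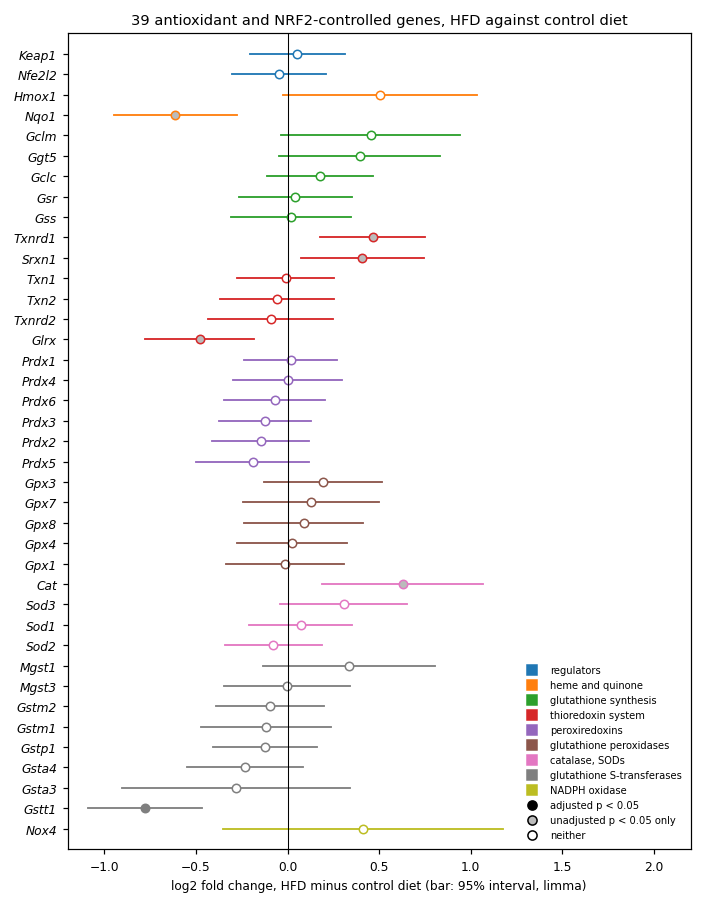
Log2 fold change of each of the 39 genes (x axis, obese on HFD minus lean on control diet, n = 3 mice each), ordered by role (colours) and size, with 95% intervals from limma as bars. Points lie between -0.78 (*Gstt1*, filled, adjusted p under 0.05) and 0.63 (*Cat*), grey points passed only an unadjusted p of 0.05, and white points passed neither.

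The plot of log2 fold changes by role shows that intervals of most genes span zero and that the 6 genes past an unadjusted p of 0.05 are spread over 4 roles, with both directions inside the thioredoxin group.

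The regulators themselves differed by less than the spread between mice. *Nfe2l2*, which encodes NRF2, had 1424, 1257 and 1363 normalized counts in lean mice 1, 2 and 3 and 1381, 1177 and 1364 in obese mice 1, 2 and 3. *Keap1*, which encodes the adaptor that marks NRF2 for degradation, had 1196, 1172 and 1027 in lean and 1267, 1107 and 1147 in obese mice. In both genes the groups overlapped. The log2 fold change was -0.046 for *Nfe2l2* (95% interval -0.30 to 0.21, adjusted p = 0.919 from limma) and 0.053 for *Keap1* (95% interval -0.21 to 0.31, adjusted p = 0.904 from limma). Smaller changes inside these intervals could not be seen with 3 mice a group, and the protein of NRF2 was not measured.

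The 2 enzymes most often read as signs of NRF2 activity lay on opposite sides of zero. *Hmox1*, heme oxygenase 1, which breaks down heme, had 317, 232 and 239 normalized counts in lean mice and 403, 251 and 497 in obese mice. Obese mouse 2 lay within the lean range, and the groups overlapped (log2 fold change 0.50, SE 0.24, adjusted p = 0.437 from limma). *Nqo1*, a quinone reductase, had 229.5, 259 and 245 in lean mice and 169, 152 and 158 in obese mice. All 3 obese mice lay below all 3 lean mice, with means of 159.5 ± 8.53 and 244 ± 14.6 (SD, n = 3 each), but the log2 fold change of -0.61 (SE 0.15) had an adjusted p of 0.105 from limma and did not pass. As a share of their summed level per kb of exon, *Nqo1* made up 51.4% ± 5.69 of the pair in lean mice and 33.0% ± 7.16 in obese mice (SD, n = 3 each).

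The 5 genes of glutathione synthesis and recycling all had log2 fold changes above zero, from 0.019 to 0.45 with a median of 0.18, and none passed the test. *Gclc*, the catalytic subunit of glutamate-cysteine ligase, the rate-limiting enzyme of glutathione synthesis, had 293, 291 and 298 normalized counts in lean mice and 319, 328 and 351 in obese mice. The 3 obese values exceeded the 3 lean values by a small step (log2 fold change 0.18, SE 0.13, adjusted p = 0.644 from limma). *Gclm*, the modifier subunit of the same enzyme, had 389, 482 and 349.8 in lean mice and 765, 546 and 403 in obese mice. Obese mice 1 and 2 lay above the lean mice and obese mouse 3 lay among them (log2 fold change 0.45, SE 0.22, adjusted p = 0.448 from limma). *Ggt5*, a gamma-glutamyl transferase that cleaves glutathione conjugates outside the cell, lay at 0.39, whereas *Gsr*, which regenerates reduced glutathione, and *Gss*, the second enzyme of its synthesis, lay at 0.043 and 0.019.

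In the thioredoxin, glutaredoxin and sulfiredoxin group, 2 of 6 genes were above zero and 4 below, with a median of -0.034. *Txnrd1*, the cytosolic selenoenzyme that reduces thioredoxin, had 1210.4, 1137 and 1252 normalized counts in lean mice and 1410.4, 1689 and 1899 in obese mice. All obese mice lay above all lean mice, and the log2 fold change was 0.46 (SE 0.13, adjusted p = 0.146 from limma). *Srxn1*, sulfiredoxin, which repairs over-oxidized peroxiredoxins, had 484, 409 and 434 in lean mice and 481, 644 and 649 in obese mice. Obese mouse 1 lay within the lean range and the other 2 above it (log2 fold change 0.41, SE 0.15, adjusted p = 0.305 from limma). *Glrx*, glutaredoxin, which removes glutathione from protein thiols, had 750.2, 864 and 862 in lean mice and 681, 553 and 546 in obese mice. Here all obese mice lay below all lean mice (log2 fold change -0.48, SE 0.13, adjusted p = 0.144 from limma). The thioredoxins *Txn1* (cytosolic) and *Txn2* (mitochondrial) and the mitochondrial reductase *Txnrd2* lay at -0.011, -0.057 and -0.091. None of the 6 genes passed the adjusted threshold in this test.

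**Figure D2:**
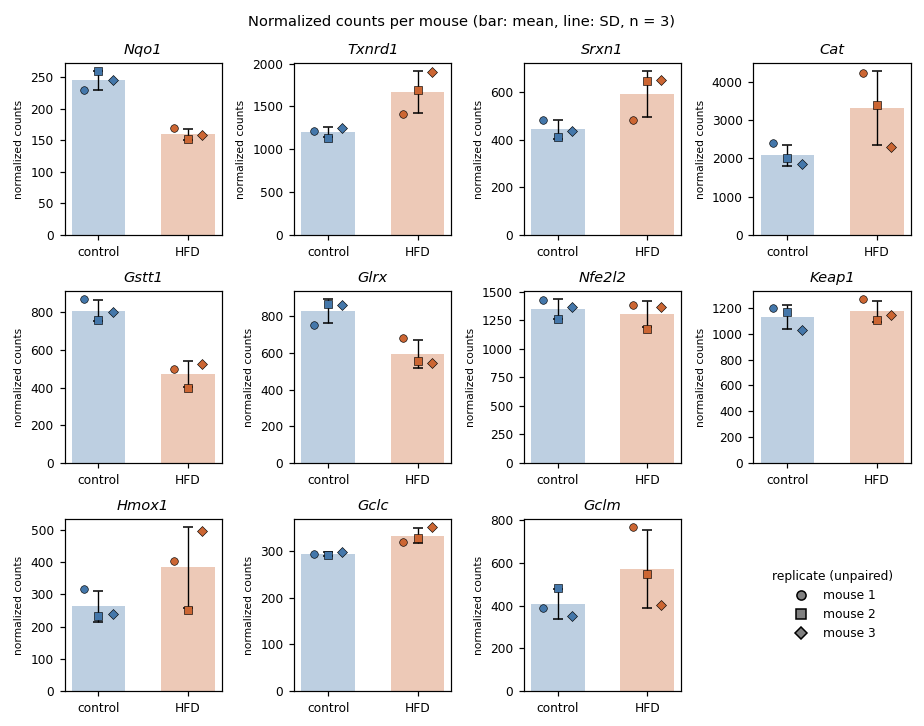
Normalized counts (y axis, from 0) of 11 antioxidant genes in each mouse, control diet in blue and HFD in orange, with bars for means and lines for SD (n = 3 mice each). Symbols mark replicate numbers, which were not treated as pairs. Groups do not overlap for *Nqo1*, *Gstt1*, *Glrx*, *Txnrd1* and *Gclc*, and overlap for the other 6.

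The plot of counts by mouse shows the pathway-defining genes with those past an unadjusted p of 0.05. Relative to the mean, spread within the obese group is widest in *Cat*, *Hmox1* and *Gclm* among the 11 genes drawn, in each of which 1 obese mouse lay within the lean range.

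Enzymes that remove hydrogen peroxide and superoxide differed in direction. *Cat*, catalase of the peroxisome, had 2386, 2019 and 1848 normalized counts in lean mice and 4228, 3385 and 2302 in obese mice. Obese mice 1 and 2 lay above every lean mouse and obese mouse 3 lay within the lean range, with a lean mean of 2084 ± 275 and an obese mean of 3305 ± 965 (SD, n = 3 each). Its log2 fold change of 0.63 (SE 0.20) had an adjusted p of 0.208 from limma. With obese mouse 3 left out, the log2 fold change of *Cat* was 0.87 and passed (adjusted p = 0.0142 from limma). DESeq2 on the recovered reads gave an adjusted p of 0.0226 for *Cat* and 0.0398 for *Txnrd1*. Of 14 alternatives, *Cat* passed in these 2 only and *Txnrd1* in 1. These 2 settings called 318 and 470 of all genes, against 114 in the main limma fit used here. The superoxide dismutases lay at 0.071 for *Sod1* in the cytosol, -0.077 for *Sod2* in mitochondria and 0.31 for the secreted *Sod3*, none of which passed.

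The 6 peroxiredoxins, thiol enzymes that reduce hydrogen peroxide, stayed within a narrow band of log2 fold changes from -0.19 (*Prdx5*) to 0.017 (*Prdx1*), with a median of -0.097 and 4 of 6 below zero. The 5 glutathione peroxidases lay between -0.012 (*Gpx1*) and 0.19 (*Gpx3*), with a median of 0.087. None of these 11 genes passed even an unadjusted p of 0.05, and the widest 95% interval among the peroxiredoxins, that of *Prdx5*, ran from -0.50 to 0.12. By compartment, the 4 mitochondrial forms (*Prdx3*, *Txn2*, *Txnrd2* and *Sod2*) were all below zero with a median of -0.084, the secreted *Gpx3* and *Sod3* both above zero, and the 3 genes of the endoplasmic reticulum (*Prdx4*, *Gpx7* and *Gpx8*) between 0.0010 and 0.13. These are directions without a test, and none of these 9 genes passed an unadjusted p of 0.05. The 5 selenoproteins among the genes had a median of 0.024.

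Levels were compared between genes as normalized counts per kb of exon. The length merged all annotated exons of a gene and can exceed that of the transcript present. Orders and shares by level are therefore approximate. *Gpx3*, the secreted glutathione peroxidase, stood far above the rest with 26758 ± 2558 per kb in lean mice and 30518 ± 1702 in obese mice (SD, n = 3 each), and made up 85.7% ± 2.06 and 87.1% ± 0.623 of the summed level of the 5 glutathione peroxidases. *Gstm1* came next with 3676 ± 565 per kb in lean and 3405 ± 647 in obese atria, then *Gpx4*, which reduces lipid peroxides in membranes, with 2628 ± 430 and 2650.3 ± 151 (SD, n = 3 each). *Prdx3*, the mitochondrial peroxiredoxin, followed with 2144 ± 199 per kb in lean mice, apart from *Gpx4* by less than the sum of their SDs. *Nox4*, which makes hydrogen peroxide, was the lowest of the 39 with 6.33 ± 1.15 per kb in lean mice and 8.94 ± 3.56 in obese mice (SD, n = 3 each). Its counts of 63.8, 44.5 and 52.5 in lean and 93.4, 92.8 and 40.9 in obese mice overlapped (log2 fold change 0.41, SE 0.35, adjusted p = 0.691 from limma).

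**Figure D3:**
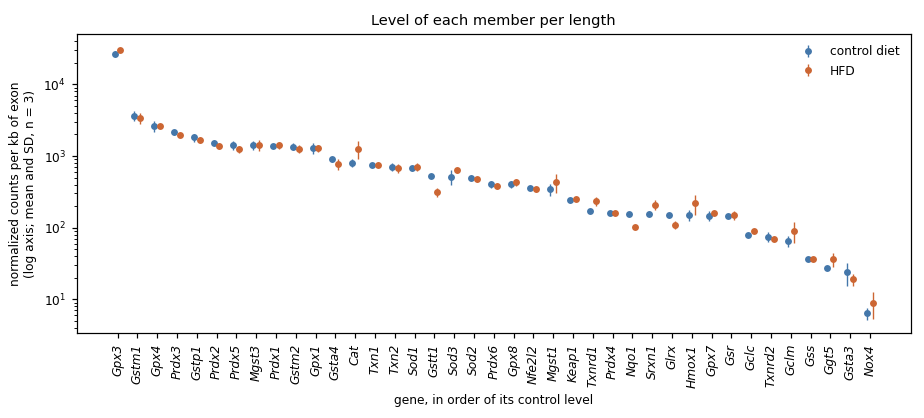
Level of each antioxidant gene in normalized counts per kb of exon (y axis, log scale; means with SD as lines, n = 3 mice each), in order of the lean level, with control diet in blue and HFD in orange. *Gpx3* stands highest at 26758 and *Nox4* lowest at 6.33 per kb in lean atria, and no gene moved by more than 6 places in the order between diets.

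The plot of levels per length covers a wide range beside which the diet difference of any one gene is small. Of the 38 pairs of neighbours in the lean order, 10 were apart by more than the sum of their SDs, among them *Gpx3* and *Gstm1* at the top and *Gsta3* and *Nox4* at the bottom, and the rest were not.

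*Gstt1* was the gene that fell. It encodes a theta-class glutathione S-transferase, which conjugates glutathione to small halogenated compounds and epoxides, and its locus is chr10:75783813-75798584 (GRCm38, minus strand). It had 868, 758 and 798 normalized counts in lean mice and 499, 396 and 525 in obese mice. Every obese mouse lay below every lean mouse, with means of 473 ± 68.4 against 808 ± 55.4 (SD, n = 3 each), a ratio of 0.586. The log2 fold change was -0.78 (SE 0.14, adjusted p = 0.0397 from limma), and an exact permutation test gave a two-sided p of 0.1, which is the least it can give. The call was lost in 5 of the 6 fits that left out a mouse (kept only without obese mouse 3), with log2 fold changes from -0.86 to -0.66, and adjusted p over all alternatives ranged from 0.000283 to 0.180.

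Of the other glutathione S-transferases among the 39, *Gsta3*, *Gsta4*, *Gstm1*, *Gstm2* and *Gstp1* lay between -0.28 and -0.095, and the membrane-bound *Mgst3* and *Mgst1* at -0.0023 and 0.33. None of these 7 passed an unadjusted p of 0.05. The family was then extended, after these values were seen, to all 19 soluble glutathione S-transferases in the lists used here, 17 of which were tested. All 17 had log2 fold changes below zero, with a median of -0.24 and a range from -0.78 to -0.061, where 49.2% of all genes tested were below zero. Of the 17, 16 were below zero without lean mouse 1, without lean mouse 2 or without obese mouse 3, and 17 under every other scaling, filter and test tried. At an unadjusted p under 0.05, 4 of the 17 were lower (*Gstt1*, *Gstt2*, *Gstm6* and *Gstm5*) and 0 higher, where 5.55% of all genes tested were lower and 6.66% higher, and 1 passed the adjusted threshold in limma. *Gstt2*, a neighbour of *Gstt1* on chromosome 10 (75831845 to 75834881), had 184, 201 and 190.2 normalized counts in lean mice and 124, 105 and 125 in obese mice. Its groups did not overlap (log2 fold change -0.70, SE 0.17, adjusted p = 0.0975 from limma), whereas *Gstt3*, on the other side of *Gstt1*, lay at -0.061. Genes of the alpha, mu and pi classes have near-identical copies that can share or lose reads, and only uniquely mapped reads were kept, so values of single *Gsta*, *Gstm* and *Gstp* genes are uncertain and the 17 genes are not independent.

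**Figure D4:**
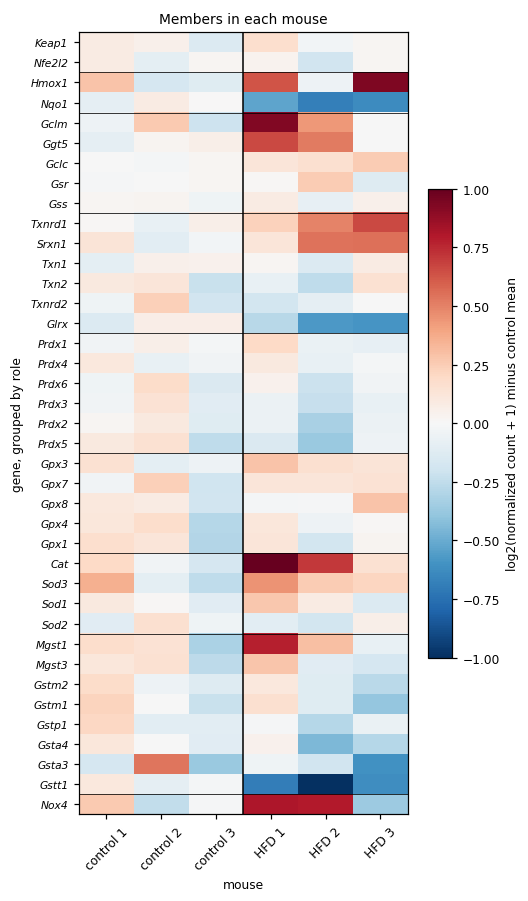
Each antioxidant gene (row, grouped by role) in each mouse (column) as log2(normalized count + 1) minus its mean in lean mice (colour, red higher and blue lower). *Gstt1* and *Nqo1* are blue in all 3 obese mice and *Txnrd1* is red in all 3, whereas *Cat*, *Gclm*, *Ggt5* and *Mgst1* are red in obese mice 1 and 2 and near the lean values in obese mouse 3.

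The map of genes by mouse shows a pattern that was noticed after the values were seen. In 5 of the 39 genes (*Cat*, *Gclm*, *Gpx3*, *Ggt5* and *Mgst1*), obese mice 1 and 2 lay above all lean mice and obese mouse 3 within the lean range, and in none below, which is 12.8% of these genes against 8.14% of all genes tested in either direction. Obese mouse 3 also stood apart from the other obese mice in 3 of 5 atrial cardiomyocyte markers, *Nppa*, *Myl7* and *Myl4*. The summed level of 5 atrial cardiomyocyte markers (*Nppa*, *Myl7*, *Myl4*, *Sln* and *Bmp10*, all detected) was 285064 and 285797 normalized counts in obese mice 1 and 2, 518575 in obese mouse 3, and 440112 to 480118 in lean mice. *Sln* went another way, with 23714, 19693 and 19799 in obese mice, all below the lean mice, and *Bmp10* had 1386, 5575 and 7960 in obese mice, with mouse 1 standing apart. The 5 white adipocyte markers (*Adipoq*, *Plin1*, *Lep*, *Cfd* and *Retn*) summed to 482 to 2217 in lean and 1061 to 3009.7 in obese mice, highest in obese mouse 1. The 4 brown adipocyte markers (*Ucp1*, *Cidea*, *Dio2* and *Elovl3*) summed to 187 to 330.3 in lean and 616 to 1283 in obese mice. *Ucp1* and *Cidea* passed the adjusted threshold in limma, but held it in 1 and 2 of the 6 fits that left out a mouse (adjusted p over all alternatives up to 0.235 and 0.177). Whether these differences in marker levels bear on *Cat* and the other 4 genes was not tested.

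Among other marker lists, the sums of the 5 fibroblast markers overlapped between diets (27650.5 to 32702 in lean, 26228.5 to 29659 in obese mice). Of these markers, *Lum* alone did not overlap singly, with 2844, 2457 and 2461.5 in lean and 2264, 2076 and 1823 in obese mice. The 5 endothelial markers summed to 11802.5 to 12280.3 in lean and 14086.5 to 15398 in obese mice without overlap. Of these 5, *Pecam1* (ratio of obese to lean means 1.48) and *Tie1* (1.12) did not overlap singly, whereas *Cdh5* (1.02), *Kdr* and *Emcn* did. The 5 macrophage markers summed to 3881 to 4816 and 5007 to 5344, and the 5 neutrophil markers to 30.2 to 38.3 and 54.1 to 86.4, likewise without overlap of the sums, although of the macrophage markers *Cd68* alone did not overlap singly. Of the neutrophil markers, *Csf3r* alone had enough reads to be tested (means 27.2 in lean and 45.3 in obese mice). The rest had few reads, with means higher in obese mice for *S100a8*, *S100a9* and *Retnlg* and lower for *Cxcr2* (1.93 in lean, 1.00 in obese mice). Sums of the smooth muscle, mesothelial, erythroid and ventricular lists overlapped, with the highest ventricular sum of 17399 in lean mouse 2 against 6882 to 9866 in the others. Of the single markers in these lists, *Cnn1* of smooth muscle alone did not overlap. It had 121, 56.1 and 114 normalized counts in lean mice and 154, 165 and 295 in obese mice (ratio of means 2.11, adjusted p = 0.187 from limma). Lung epithelial markers were at or near 0, *Sftpb* and *Scgb1a1* at 0 in every mouse. Their part in the values of *Gstt1*, *Nqo1*, *Glrx* and *Txnrd1* was not tested.

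The wider pathway was read from 94 further genes in 6 lists, of which 86 had enough reads to be tested. Of these, 10 (11.6%) were higher and 9 (10.5%) lower at an unadjusted p under 0.05, where 6.66% and 5.55% of all genes tested were, and 3 passed the adjusted threshold in limma, all of them higher (*Chac1*, *Txnip* and *Mafg*, 3.49%, where 0.484% of all genes tested were). These lists were also chosen with earlier results known, so that the shares describe them and support nothing. The median log2 fold change of the 86 was -0.0028.

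*Chac1*, which degrades glutathione in the cytosol and is also a known target of the integrated stress response, had 44.8, 52.7 and 31.7 normalized counts in lean mice and 343, 241 and 196.5 in obese mice. It rose without overlap (log2 fold change 2.56, SE 0.27, adjusted p = 0.00403 from limma) and passed in all 6 fits that left out a mouse, but not without a variance trend (adjusted p = 0.0862). *Txnip*, which binds and inhibits thioredoxin and is induced by glucose, had 5430.4, 5256 and 6745 in lean mice and 20129, 22435 and 12289 in obese mice. It too rose, all obese mice lying above all lean mice (log2 fold change 1.62, SE 0.21, adjusted p = 0.00937 from limma), and passed in 4 of the 6 fits, the adjusted p being 0.0508 without lean mouse 1, 0.0689 without lean mouse 2 and 0.174 without a variance trend. The thioredoxins *Txn1* and *Txn2* themselves lay at -0.011 and -0.057. *Mafg*, a small MAF protein that pairs with NRF2 on its elements, had 1018, 942 and 925 in lean mice and 1336, 1464.5 and 1463 in obese mice. It passed narrowly (log2 fold change 0.56, SE 0.11, adjusted p = 0.0497 from limma), and lost the call in 11 of 14 alternatives, with adjusted p up to 0.220.

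**Figure D5:**
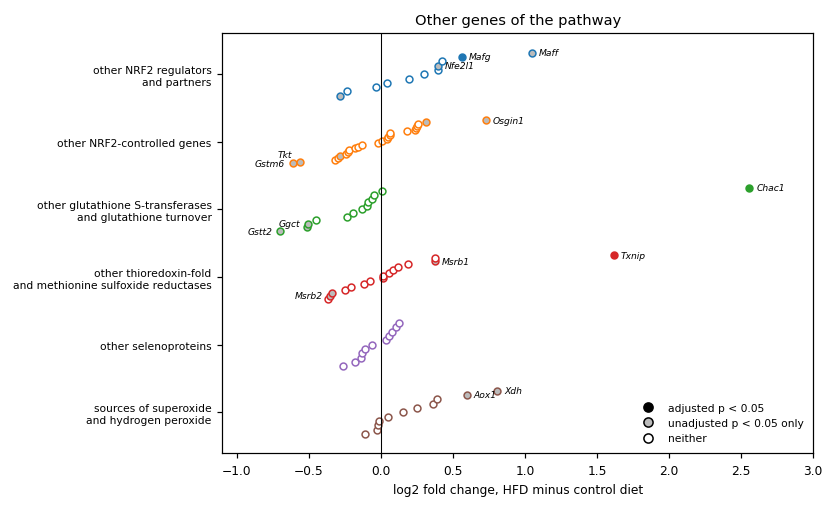
Log2 fold change (x axis, obese on HFD minus lean on control diet, n = 3 mice each) of the 86 tested genes of the wider pathway, by list (y axis; points are spread vertically by rank only). Filled points passed an adjusted p of 0.05 in limma (*Chac1* at 2.56, *Txnip* at 1.62 and *Mafg* at 0.56), grey points only an unadjusted one, and white points neither.

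In the plot of the wider pathway, the list of NRF2 regulators and partners has 8 of 11 genes above zero and a median of 0.30. At an unadjusted p under 0.05, 3 (27.3%) were higher and 1 (9.09%) lower, beside 6.66% and 5.55% of all genes tested. *Maff*, another small MAF protein, had 131, 105 and 106 normalized counts in lean mice and 194, 201 and 336 in obese mice, and *Nfe2l1*, an NRF2 relative that controls proteasome genes, had 7075, 7240.1 and 7159 against 8820.1, 10382 and 9121. Both had groups without overlap, with log2 fold changes of 1.05 (adjusted p = 0.0741 from limma) and 0.40 (adjusted p = 0.149). DESeq2 on the recovered reads gave them adjusted p of 0.00292 and 0.0243. That was the 1 alternative of 14 in which either gene passed, and it called 470 of all genes against 114 in the main limma fit.

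The list of other NRF2-controlled genes had 12 of 24 above zero and a median of -0.0078, with 2 (8.33%) higher and 3 (12.5%) lower at an unadjusted p under 0.05, beside 6.66% and 5.55% of all genes tested. *Osgin1*, an oxidative stress-induced growth inhibitor, lay at 0.73 (adjusted p = 0.214 from limma). *Tkt*, transketolase of the pentose phosphate pathway, had 1153, 1181 and 939 normalized counts in lean mice and 702, 706 and 796 in obese mice, without overlap (log2 fold change -0.56, adjusted p = 0.0821 from limma). *Gstm6* lay at -0.61 (adjusted p = 0.136).

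In the list of other glutathione S-transferases and genes of glutathione turnover, 11 of 13 lay below zero with a median of -0.13, where 49.2% of all genes tested were below zero. *Chac1*, at 2.56, belongs to this list and lay far above zero. At an unadjusted p under 0.05 in limma, 1 (7.69%) was higher and 3 (23.1%) lower, beside 6.66% and 5.55% of all genes tested. Of these 13, 6 are soluble glutathione S-transferases already counted above, and of the other 7 genes 5 lay below zero. *Ggct*, gamma-glutamylcyclotransferase, which acts on gamma-glutamyl amino acids, had 408, 416 and 407 normalized counts in lean mice and 279, 306 and 279 in obese mice, without overlap (log2 fold change -0.51, adjusted p = 0.110 from limma). The list of thioredoxin-fold proteins and methionine sulfoxide reductases, to which *Txnip* belongs, had a median of 0.017. At an unadjusted p under 0.05, 2 (12.5%) were higher and 2 (12.5%) lower, beside 6.66% and 5.55% of all genes tested. *Msrb1* lay at 0.38 and the mitochondrial *Msrb2* at -0.35 (adjusted p = 0.278 and 0.373 from limma). Of 11 other selenoproteins, 0 passed an unadjusted p of 0.05 in limma and 0 the adjusted one, beside 12.2% and 0.746% of all genes tested. Their log2 fold changes ran from -0.26 to 0.13, and with so few genes these counts say little.

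Of 11 tested genes whose proteins make superoxide or hydrogen peroxide, 7 lay above zero with a median of 0.16, and 2 (18.2%) were higher and 0 lower at an unadjusted p under 0.05 in limma, beside 6.66% and 5.55% of all genes tested. *Xdh*, xanthine dehydrogenase, had 1234, 1398 and 1073 normalized counts in lean mice and 1874.5, 2720 and 1957 in obese mice, without overlap (log2 fold change 0.81, SE 0.16, adjusted p = 0.0534 from limma). It passed in 4 of 14 alternatives, among them DESeq2 with an adjusted p of 0.000240. *Aox1*, aldehyde oxidase, had 490.4, 484 and 501 in lean mice and 839, 967 and 507 in obese mice, so that obese mouse 3 lay just above the lean range (log2 fold change 0.60, adjusted p = 0.267 from limma). Without obese mouse 3, *Aox1* passed, with a log2 fold change of 0.87 and an adjusted p of 0.00921 from limma. It passed in no other of the 14 alternatives.

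The textbook targets of NRF2 among the 39 genes were 13, of which 7 lay above zero and 6 below, with a median of 0.017. At an unadjusted p under 0.05, 2 (15.4%) were higher (*Txnrd1* and *Srxn1*) and 1 (7.69%) lower (*Nqo1*), beside 6.66% and 5.55% of all genes tested, and 0 passed the adjusted threshold in limma. Of the 8 genes with an antioxidant response element in the promoter window, 6 lay above zero and 2 below, with a median of 0.20, while of the 24 with an entry and no match 9 lay above and 15 below, with a median of -0.034. These are descriptions of few genes without a test.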

How the data were processed

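Atrial RNA of 3 obese and 3 lean mice was sequenced from directional libraries. The authors aligned reads to GRCm38 with STAR, assigned uniquely mapped reads to genes with Salmon and divided read counts by a DESeq2 size factor per sample (FastQC, STAR, Salmon and DESeq2 are also named in the submitters' processing notes, without versions). The deposited signal is this normalized count. The use of strand in counting is not stated, so overlapping antisense genes are uncertain. The deposited columns of the authors' own comparison (mean, log2 fold change and its standard error, scores, p-value and adjusted p-value) were not used.

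Genes with a mean of at least 10 (15275 of 24679 with any read) entered limma (version 3.58.1, R 4.3.3, with a variance trend) on log2(value + 1), which understates changes of low genes, with 95% intervals, Benjamini-Hochberg adjustment and a threshold of 0.05. Ensembl identifiers matched GENCODE symbols for 42462 of 43432 genes (97.8%). Exon lengths came from GENCODE, with all annotated exons of a gene merged, and coordinates from the deposited table, except for promoter sites. Values in 100% of cases were whole multiples of 1 read (tolerance 0.01), and these reads served edgeR 4.0.16 and DESeq2 1.42.0 as alternatives. No pair of replicates agreed within sampling noise. Values by mouse are given for genes with an unadjusted p under 0.05 and 8 defining genes. Of the wider pathway, genes past the adjusted threshold and up to 3 per list with the smallest unadjusted p under 0.05 are named. An item of the wider pathway is not reported here. The genes and lists were chosen with earlier results of these data known. The limma step was tested on simulated data.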

Additional observations from a re-analysis of the deposited data

How the results depend on the processing

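The count of all genes called was 114 in the main limma fit. It was 0 without a variance trend (1717 at an unadjusted p under 0.05). With DESeq2, which the paper also used, it was 470, and with a mouse left out 14 to 318. The count of antioxidant genes called, 1, was 0 without a variance trend, 3 with DESeq2 (*Cat*, *Txnrd1* and *Gstt1*) and 0 to 2 with a mouse left out. The count higher at an unadjusted p under 0.05, 3, was 5 without a filter, 5 with DESeq2 and 2 to 6 with a mouse left out, and the count lower, 3, was 3 to 4. *Keap1* reversed to -0.015 without lean mouse 3 and -0.0032 without obese mouse 1 (range with a mouse left out -0.015 to 0.095), and *Nfe2l2* to 0.028 without obese mouse 2 (range -0.095 to 0.028). The cause was not tested. The median of the 39 genes moved by less than the spread between mice in all 14 alternatives. Of 350 values for 25 named genes, 314 kept direction and side of the threshold, 21 lost it, 12 gained it and 3 reversed. Most values that kept their side belong to genes that were not called at the outset and stayed so. All 21 losses fell on the named genes that were called, *Mafg* in 11 of 14 alternatives, *Gstt1* in 6, *Txnip* in 3 and *Chac1* in 1.

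With the replicate number as a block, 157 genes were called, 7 antioxidant genes were higher at an unadjusted p under 0.05, and *Gstt1* was still called. Deviations of same-numbered mice correlated at 0.12, -0.027 and -0.0039, and those of differently numbered mice at -0.15 to 0.16. No sign of pairing by number was seen, but with so few mice these values cannot show that the mice were unpaired.

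With 3 mice a group, the 95% intervals of the 39 genes reached 0.25 to 0.77 on the log2 scale to either side, with a median of 0.31.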
